A study of Mus musculus with 6 samples.

Results

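Transcript levels of 48 genes of mitosis, the spindle and the kinetochore were followed in neural stem cell cultures of 2 regions of the embryonic mouse brain. The genes form a named list, and each gene was read from its brightest probe set among those annotated to a single gene symbol. Of the 48, 47 were measured, out of 19938 genes on the array. Ccnb1, the cyclin B1 gene, had no probe set with a single symbol and is not analysed here. In the labels, 3 arrays hold cultures from the subventricular zone of the third ventricle and 3 hold cultures from that of the lateral ventricle. All cultures shared the same background, wild-type female C57BL/6 embryos at embryonic day 17.5, and grew in low-attachment dishes with FGF and EGF at 20 ng/ml each. The series describes cultures from 3 independent females, and the labels call the arrays biological replicates without tying an array to an animal. The p-values therefore measure the spread between these cultures, which may be partly technical.

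Cells that enter mitosis condense their chromosomes, build a spindle, attach each chromosome to it through the kinetochore and hold back anaphase until all are attached. Most genes of this machinery are transcribed in a wave in G2 and mitosis and are low in cells that have left the cycle, so their RNA is widely used as a measure of the dividing share of a culture. Neural stem cells in such cultures are kept dividing by FGF and EGF.

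Values are log2 expression after RMA, so a difference of 1 is a doubling. A gauge of background was taken from 1027 olfactory receptor genes, whose 95th percentile lay between 5.03 and 5.16 in the 6 arrays. Of 13 measured stem and progenitor markers, 12 lay above it in all 6 arrays, among them Sox2, Nes, Vim and Fabp7. Of 9 microglial markers 0 did, and of 8 endothelial markers 2 did. The same held for 10 of 15 neuronal, 9 of 11 astrocyte, 9 of 11 oligodendrocyte and 6 of 10 ependymal markers. It held for 11021 of all 19938 genes, so clearing the gauge did not single out stem cells. Lateral ventricle array 2 stood apart from its own group. Over all genes it correlated at 0.991 to 0.992 with the third ventricle arrays and at 0.980 and 0.982 with lateral ventricle arrays 1 and 3. Which lateral arrays stand for their region cannot be told from 3 arrays, so the results are given with and without lateral ventricle array 2, which was singled out after its values were seen.

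The mitosis genes were low in lateral ventricle arrays 1 and 3 and high in the other 4 arrays. Taking each gene against its mean in the third ventricle arrays, the median of the 47 genes was -1.94 in lateral ventricle array 1 (a level 3.83-fold lower), -0.03 in lateral ventricle array 2 and -1.42 in lateral ventricle array 3 (2.68-fold lower). Over all genes the same medians were -0.0010, 0.02 and 0.02. In 46 of 47 genes the order was lateral array 1 lowest, then array 3, then array 2. Cdc20 was the exception, with array 3 below array 1. How often all genes had this order was not counted. In bulk RNA, fewer dividing cells and less of these transcripts per dividing cell cannot be told apart.

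**Figure D1:**
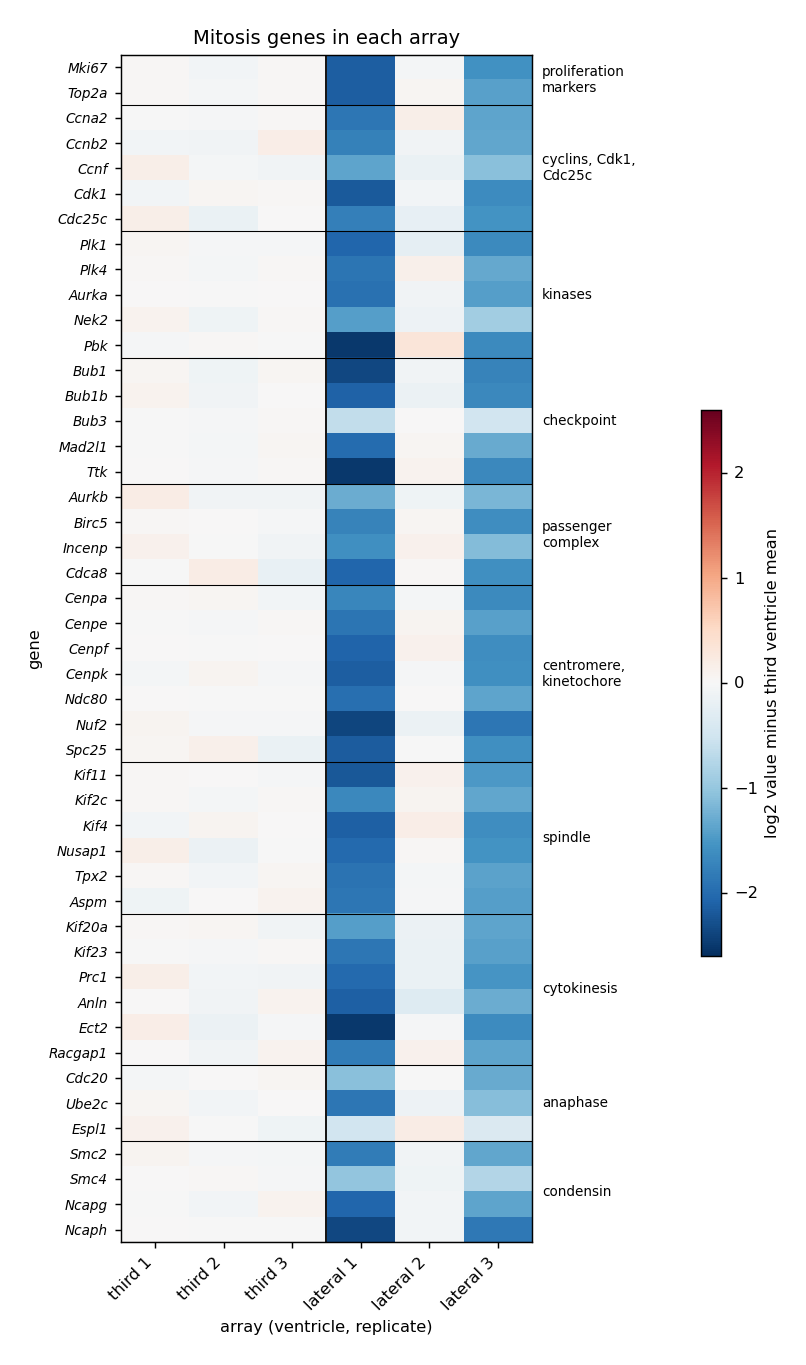
Log2 value of each of the 47 measured mitosis genes (rows, grouped by role) in each array (columns, the third ventricle left, the lateral ventricle right), minus the gene's mean over the third ventricle arrays. Lateral ventricle arrays 1 and 3 are blue down the whole list, at medians of -1.94 and -1.42, while lateral ventricle array 2 is near 0 (median -0.03).

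With all 6 arrays, each of the 47 genes had a positive difference (the third minus the lateral ventricle), with a median of 1.15 against -0.02 over all genes, of which 45.4% were positive. By limma's adjusted p, with a threshold of 0.05, 0 of the 47 passed, where 0.231% of all 19938 genes did (0.145% as higher and 0.0853% as lower). The lowest adjusted p among them was 0.297 and the highest 0.646, and 44 had an unadjusted p below 0.05. That held for 12.6% of all genes, 6.21% with a positive difference. The groups did not overlap in 17 of the 47 genes, all with the third ventricle arrays on top, where 7.77% of all genes showed that order. The margin was small: in those 17 genes lateral ventricle array 2 lay below the lowest of the third ventricle arrays at a median of -0.0666 from it. In all 47 genes the third ventricle arrays lay above lateral arrays 1 and 3, an order that 17.8% of all genes had. Without lateral ventricle array 2, all 47 passed as higher in the third ventricle cultures, where 8.25% of all genes passed, 4.37% as higher and 3.88% as lower. Their median difference in that fit was 1.68, a fold of 3.19, and their adjusted p lay between 0.000253 and 0.0474. That fit sets 2 lateral arrays against 3, and lateral ventricle array 2 did not share the differences it gave for the mitosis genes. Set alone against the third ventricle arrays, that array gave a median difference of 0.03, with 28 genes positive and 19 negative. None passed in that fit (lowest limma adjusted p = 0.359), where 0.296% of all genes did, and 2 had an unadjusted p below 0.05, as did 12.2% of all genes. With 1 lateral array, that fit takes its spread from the third ventricle arrays alone and assumes that the lateral array varies like them. Its p-values therefore do not show that the array is alike to the third ventricle arrays, and only the differences describe where it lay.

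With all arrays kept, the spread of these genes was also larger over the lateral than over the third ventricle arrays. Over the third ventricle arrays the SD had a median of 0.07 over the 47 genes and was at most 0.20, while over the lateral arrays it had a median of 1.00 and ran from 0.35 to 1.45. For all genes the median SDs were 0.105 in the third and 0.15 in the lateral ventricle arrays. The SD was larger in the lateral arrays for 47 of the 47 genes, where 66.8% of all genes had that order. A range above 1 among the lateral arrays was seen for 44 of the 47, where 3.63% of all genes had one, and among the third ventricle arrays for 0 of the 47, where 0.0903% of all genes did. Lateral array 3 minus lateral array 1 had a median of 0.48 and ran from -0.21 to 0.86, so no gene exceeded 1 between them. The ranges above 1 thus rested on the remaining lateral array. The median range of the third ventricle arrays was 0.12. Both lateral arrays 1 and 3 lay at least 1 below the third ventricle mean for 43 of the 47 genes (91.5%). That held for 216 genes in all (1.08%), so these 43 were 19.9% of them. It also held for 42 of the other mitosis genes described below (63.6% of that list) and for 17 of the S phase genes (45.9%).

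**Figure D2:**
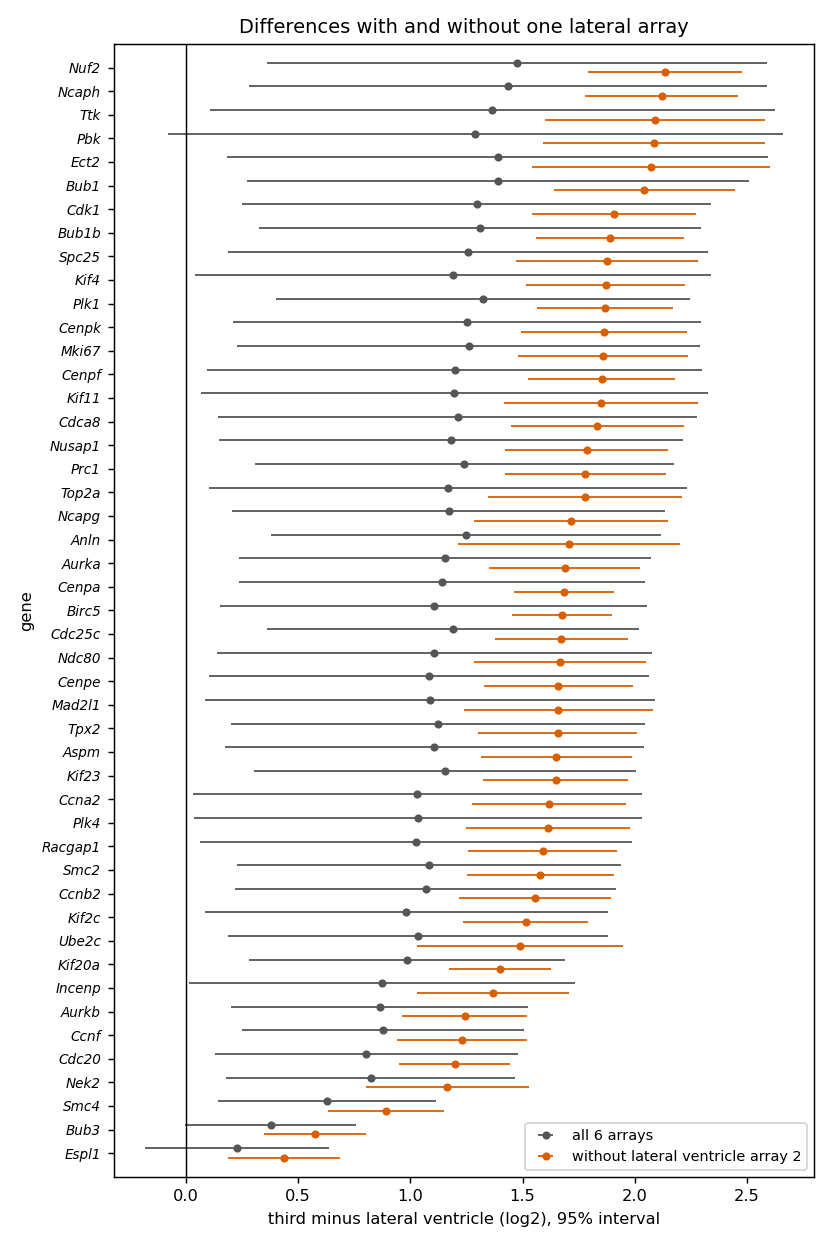
Difference (log2, the third minus the lateral ventricle) of each of the 47 genes with its 95% interval from limma, over all 6 arrays (grey) and without lateral ventricle array 2 (orange), sorted by the orange values. The median difference was 1.15 over all arrays and 1.68 without that array, where the intervals are narrower.

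The proliferation markers set the pattern. Mki67 encodes Ki-67, the protein that coats mitotic chromosomes and is stained to count dividing cells. Its log2 values were 9.83, 9.71 and 9.83 in the third ventricle arrays, against 7.64, 9.73 and 8.22 in lateral ventricle arrays 1, 2 and 3. Lateral arrays 1 and 3 thus lay below all others and array 2 within the third ventricle range. The third minus lateral difference was 1.26 over all arrays (95% interval 0.23 to 2.29, limma adjusted p = 0.34) and 1.86 without lateral ventricle array 2 (adjusted p = 0.000623). Top2a, the topoisomerase that untangles sister chromosomes, read 11.04, 10.95 and 11.03 against 8.87, 11.06 and 9.58 in the same order of arrays, with differences of 1.17 over all arrays (95% interval 0.10 to 2.23, limma adjusted p = 0.366) and 1.78 without lateral ventricle array 2 (adjusted p = 0.00117). A dimmer probe set of Top2a, at 4.27 to 5.16 and so around the background gauge, differed by 0.33.

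Among the cyclins and their partners, Cdk1, the kinase that drives entry into mitosis, had values of 9.78, 9.91 and 9.89 in the third ventricle arrays, against 7.68, 9.79 and 8.23 in lateral ventricle arrays 1, 2 and 3. It differed by 1.30 over all arrays (95% interval 0.25 to 2.34, limma adjusted p = 0.338) and 1.91 without lateral ventricle array 2 (adjusted p = 0.000513). Cyclin A2 (Ccna2), which works in S and G2 phase, differed by 1.03 over all arrays and 1.62 without lateral array 2, and cyclin B2 (Ccnb2), a mitotic partner of Cdk1, by 1.07 and 1.56. The pair differed in where lateral array 2 lay: its Ccna2 value, 9.20, was above the third ventricle arrays (9.03 to 9.08), and its Ccnb2 value, 9.01, was just below them (9.02 to 9.26). Cdc25c, the phosphatase that activates Cdk1, differed by 1.19 and 1.67. Ccnf, an F-box cyclin that directs ubiquitin ligation, differed by 0.88 and 1.23. It was the one gene of the list below the background gauge in any array (4.90 in lateral array 1).

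The promoters of a few of these genes are shown because the genes were low in the same arrays and because G2 and mitosis genes are known to share a short element, the cell cycle genes homology region (CHR), bound by the DREAM and MuvB complexes, often beside CCAAT boxes bound by NF-Y. Windows of 250 bases before to 50 after the annotated start were taken from RefSeq (build GRCm38.p6). They are printed from 5′ to 3′ on the strand of the gene, with matches to the CHR core (TTTGAA or TTCGAA) and the CCAAT box (CCAAT, or ATTGG on the other strand), searched on both strands, in capitals. Espl1 is added as the gene with the smallest difference of the list.
Cdk1 (chr10:69352863-69353162, minus strand): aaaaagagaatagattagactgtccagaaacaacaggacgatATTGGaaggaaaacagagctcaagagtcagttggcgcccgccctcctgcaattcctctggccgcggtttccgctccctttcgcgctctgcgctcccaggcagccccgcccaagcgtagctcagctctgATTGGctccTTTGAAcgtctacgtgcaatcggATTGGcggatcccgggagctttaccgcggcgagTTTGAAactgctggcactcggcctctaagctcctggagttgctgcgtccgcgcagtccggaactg
Ccnb2 (chr9:70421505-70421804, minus strand): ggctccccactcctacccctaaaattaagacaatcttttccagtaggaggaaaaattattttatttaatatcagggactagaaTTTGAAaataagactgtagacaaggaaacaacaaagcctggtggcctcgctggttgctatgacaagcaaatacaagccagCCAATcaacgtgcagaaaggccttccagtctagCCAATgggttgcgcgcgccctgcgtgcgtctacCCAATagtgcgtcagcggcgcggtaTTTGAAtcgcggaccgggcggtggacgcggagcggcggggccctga
Plk1 (chr7:122159185-122159484, plus strand): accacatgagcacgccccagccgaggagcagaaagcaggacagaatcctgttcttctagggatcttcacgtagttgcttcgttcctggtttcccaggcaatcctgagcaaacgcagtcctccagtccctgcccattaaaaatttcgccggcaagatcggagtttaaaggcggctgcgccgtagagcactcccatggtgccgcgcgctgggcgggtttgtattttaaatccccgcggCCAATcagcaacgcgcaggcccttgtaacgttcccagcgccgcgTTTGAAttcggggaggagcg
Espl1 (chr15:102296043-102296342, plus strand): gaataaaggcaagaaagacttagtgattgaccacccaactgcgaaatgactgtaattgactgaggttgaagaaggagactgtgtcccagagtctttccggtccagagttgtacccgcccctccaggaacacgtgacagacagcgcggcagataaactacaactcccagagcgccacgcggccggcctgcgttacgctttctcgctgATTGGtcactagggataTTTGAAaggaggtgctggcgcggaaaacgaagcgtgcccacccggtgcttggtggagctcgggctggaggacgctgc

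In Cdk1 the CHR core matches began at -71 and -15, counted in bases from the annotated start, and in Ccnb2 at -167 and 5, while Plk1 had a match at 31 and Espl1 at -27. Espl1, with a difference of 0.23, thus carried the same letters as the genes with large differences. Its values (5.19 to 5.89) lay near the background gauge, which limits this comparison. Of the 47 genes, 39 had a window in the table, and the first window listed was used where a gene had several. A CHR core match was found in 30 of the 39 (76.9%), against 16.8% of the windows of 15614 measured genes. CCAAT was found in 30 (76.9%) against 38.2%, and both in 27 (69.2%) against 6.84%. The S phase genes described below were also low in lateral arrays 1 and 3. Of their 31 windows, 19.4% held a CHR core match, 61.3% CCAAT and 16.1% both. The other mitosis genes described below had 56 windows, of which 58.9% held a CHR core match, 62.5% CCAAT and 39.3% both. High shares were thus not particular to the 47 genes. The matches of the motifs overlapped in 1 of the 39 windows. The windows were alike in base composition, with a median GC content of 58.0% for the 39 and 57.7% for all. The 30 genes with a CHR core match had a median difference of 1.17 over all arrays and the 9 without one 1.103. All 30 and all 9 passed as higher without lateral array 2. Among genes on none of the lists used here, 1006 windows held both motifs, and 6.56% of these genes passed as higher without lateral array 2. The share was 3.78% of the 1533 genes with the CHR core alone, 4.51% of the 4830 with CCAAT alone and 2.95% of the 8012 with neither. The windows of these 4 sets differed in GC content, with medians of 49.7%, 50%, 57.3% and 60% in the same order, whose part in the shares was not tested. Over all genes with a window the share was 4.49%, but that count includes the genes of the lists and is not a matching background for these 4 sets. A match of letters does not show a bound site.

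The mitotic kinases followed the same order of arrays. Plk1, the polo-like kinase of the centrosome, kinetochore and midbody, had values of 8.16, 8.08 and 8.09 in the third ventricle arrays, against 6.04, 7.87 and 6.45 in lateral ventricle arrays 1, 2 and 3. Here lateral array 2 lay below all of the third ventricle arrays. The difference was 1.32 over all arrays (95% interval 0.40 to 2.25, limma adjusted p = 0.297) and 1.87 without lateral ventricle array 2 (adjusted p = 0.000295). Pbk, a kinase active in mitosis, went the other way in lateral array 2, with values of 9.50, 9.56 and 9.52 against 7.02, 9.83 and 7.86. That array was the highest of the 6 for Pbk, and the gene differed by 1.29 over all arrays (95% interval -0.08 to 2.66, limma adjusted p = 0.414) and 2.09 without lateral ventricle array 2 (adjusted p = 0.00103). Aurka, the Aurora kinase of the spindle poles, differed by 1.15 and 1.69, Plk4, which starts centriole duplication, by 1.03 and 1.61, and Nek2, which separates the centrosomes, by 0.82 and 1.17.

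Genes of the spindle assembly checkpoint, which holds back anaphase, held both large and small differences. Bub1, a kinase at the kinetochore, read 9.20, 9.06 and 9.22 in the third ventricle arrays, against 6.80, 9.07 and 7.43 in lateral ventricle arrays 1, 2 and 3, with differences of 1.39 over all arrays (95% interval 0.27 to 2.51, limma adjusted p = 0.338) and 2.04 without lateral ventricle array 2 (adjusted p = 0.000583). Mad2l1 encodes Mad2, the inhibitor of Cdc20, and read 9.98, 9.93 and 10.04 against 7.98, 10.04 and 8.66, with lateral array 2 at the top of the third ventricle values and differences of 1.09 and 1.66. Ttk, the kinase Mps1 that starts the checkpoint, differed by 1.36 and 2.09, and Bub1b, which encodes BubR1, by 1.31 and 1.89. Bub3, the adaptor that carries Bub1 and BubR1 to the kinetochore, stood apart with a small difference. Its values were 8.42, 8.41 and 8.47 against 7.78, 8.45 and 7.93, and it differed by 0.38 over all arrays (95% interval -0.0029 to 0.76, limma adjusted p = 0.396) and 0.57 without lateral ventricle array 2 (adjusted p = 0.0105). Lateral arrays 1 and 3 were again the lowest for Bub3, at -0.65 and -0.50 from the third ventricle mean.

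**Figure D3:**
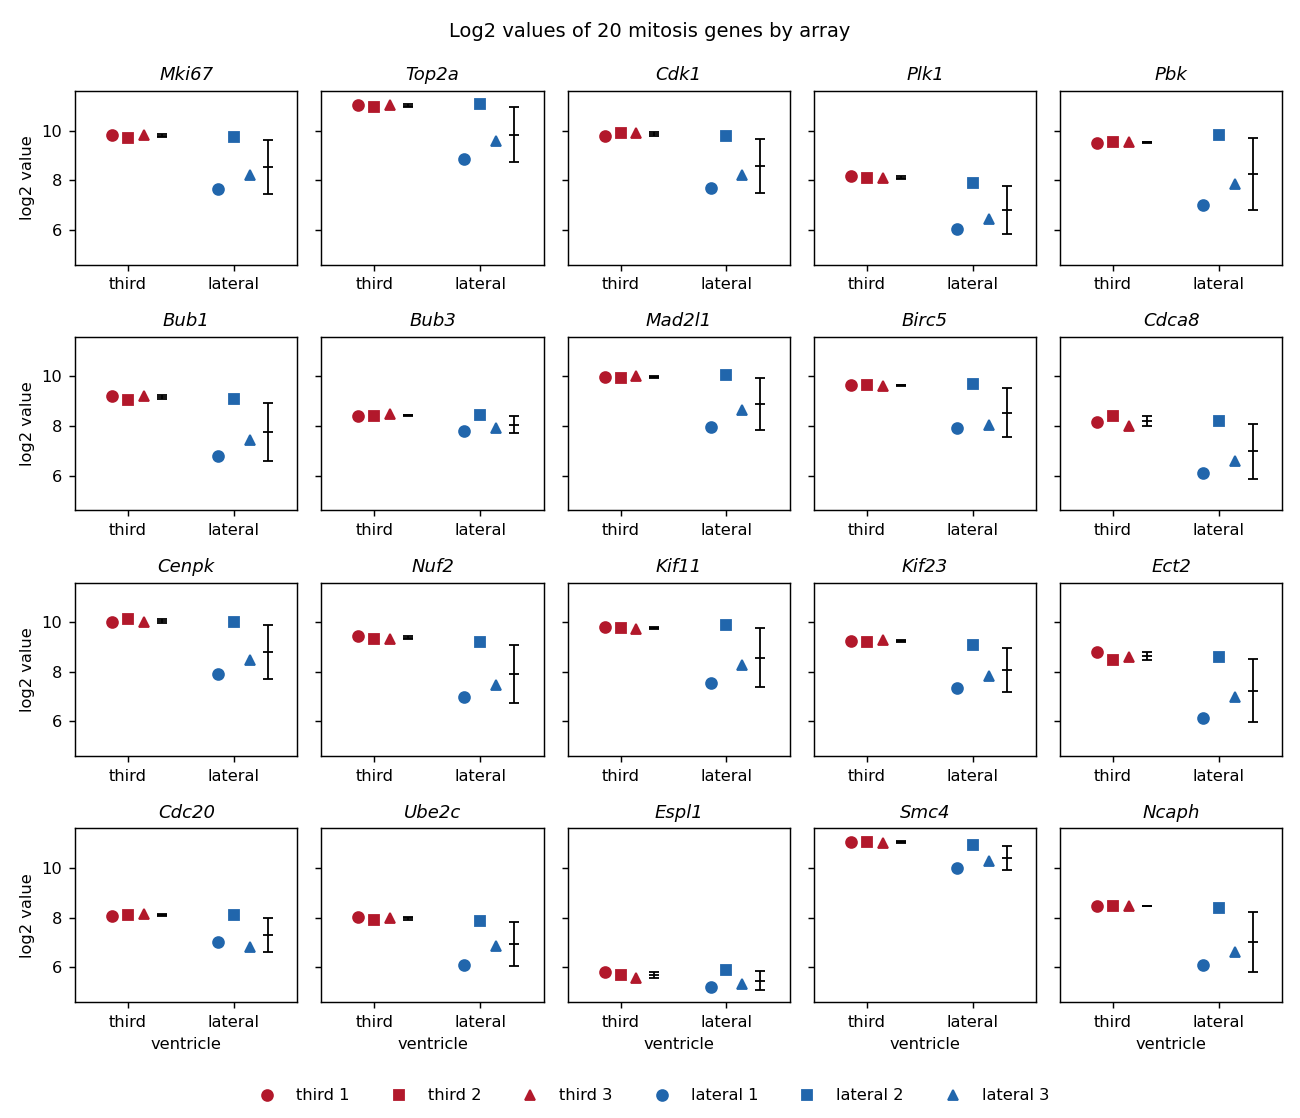
Log2 values of 20 mitosis genes by array, with the third ventricle (red) left and the lateral ventricle (blue) right in each panel and the array number given by the marker. Black bars give mean ± SD (n = 3). In each panel lateral arrays 1 (circle) and 3 (triangle) lie below the third ventricle arrays, while lateral array 2 (square) lies near them. Over the 47 genes it was between -0.33 and 0.31 of the third ventricle mean.

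The chromosomal passenger complex corrects attachments and later acts in cytokinesis. Birc5, its survivin subunit, had the lowest adjusted p of the list without lateral array 2 (0.000253), a value shared with Cenpa. It read 9.66, 9.65 and 9.61 in the third ventricle arrays, against 7.90, 9.68 and 8.03 in lateral ventricle arrays 1, 2 and 3, with lateral array 2 just above the third ventricle range and a difference of 1.103 over all arrays and 1.68 without that array. Cdca8, which encodes borealin, read 8.18, 8.39 and 7.99 against 6.12, 8.22 and 6.59. Its SD over the third ventricle arrays, 0.20, was the highest of the list, and it differed by 1.21 and 1.83. The scaffold Incenp differed by 0.87 and 1.37 and the kinase Aurkb by 0.86 and 1.24.

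Centromere and kinetochore genes included the largest difference of the list over all arrays. Nuf2, a subunit of the Ndc80 complex that grips microtubules, read 9.45, 9.34 and 9.34 in the third ventricle arrays, against 6.99, 9.22 and 7.49 in lateral ventricle arrays 1, 2 and 3. Lateral array 2 lay just below the lowest of the third ventricle arrays, and the other 2 lateral arrays far below it. The difference was 1.48 over all arrays (95% interval 0.36 to 2.59, limma adjusted p = 0.32) and 2.14 without lateral ventricle array 2 (adjusted p = 0.000295). Its partners Ndc80 and Spc25 differed by 1.11 and 1.26 over all arrays and by 1.67 and 1.87 without lateral array 2. Cenpk, part of the inner kinetochore network, read 10.002, 10.12 and 10.01 against 7.90, 10.01 and 8.46, with differences of 1.25 and 1.86. Cenpa, the histone variant that marks the centromere, differed by 1.14 and 1.68, the kinetochore motor Cenpe by 1.08 and 1.66, and Cenpf by 1.197 and 1.85.

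Of the spindle genes, Kif11, the kinesin Eg5 that pushes the poles apart, read 9.81, 9.77 and 9.74 in the third ventricle arrays, against 7.57, 9.88 and 8.28 in lateral ventricle arrays 1, 2 and 3. Lateral array 2 was the highest of the 6, and the difference was 1.196 over all arrays (95% interval 0.07 to 2.33, limma adjusted p = 0.378) and 1.85 without lateral ventricle array 2 (adjusted p = 0.000996). The remaining spindle genes lay between 0.98 for Kif2c, a kinesin that shortens microtubules, and 1.19 for the chromosome-bound kinesin Kif4 over all arrays. Nusap1, which bundles microtubules, Tpx2, which activates Aurora A, and Aspm, a pole protein that keeps neural progenitors dividing symmetrically, differed by 1.18, 1.12 and 1.11. Without lateral array 2 these 5 genes differed by 1.51 to 1.87.

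For cytokinesis, Kif23, the kinesin of the central spindle, read 9.24, 9.21 and 9.28 in the third ventricle arrays, against 7.37, 9.07 and 7.82 in lateral ventricle arrays 1, 2 and 3. Ect2, the exchange factor that turns on RhoA at the cleavage furrow, read 8.81, 8.48 and 8.603 against 6.13, 8.61 and 6.99. Both had lateral arrays 1 and 3 at the bottom, with differences of 1.15 and 1.39 over all arrays and 1.65 and 2.07 without lateral array 2. Racgap1, the partner of Kif23 at the central spindle, differed by 1.02 and 1.59, the bundler Prc1 by 1.24 and 1.78, the furrow scaffold Anln by 1.25 and 1.71, and the kinesin Kif20a by 0.99 and 1.40. Lateral array 2 lay below the third ventricle range for Kif20a, Kif23, Prc1 and Anln, and the median of the 6 cytokinesis genes in it was -0.16 against the third ventricle mean, while the median of the 6 spindle genes was 0.05. Over the 47 genes it lay above the third ventricle range for 15, within it for 15 and below it for 17. The matching counts over all genes were not made. The only 2 genes with an unadjusted p below 0.05 in the fit on that array alone were Anln (difference 0.33) and Pbk (-0.31), with opposite signs and no lateral replicate.

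Among the genes of anaphase, Cdc20, the activator of the anaphase-promoting complex, read 8.05, 8.11 and 8.17 in the third ventricle arrays, against 7.02, 8.09 and 6.81 in lateral ventricle arrays 1, 2 and 3. It was the gene with lateral array 3 lowest, and it differed by 0.80 over all arrays (95% interval 0.13 to 1.48, limma adjusted p = 0.347) and 1.197 without lateral ventricle array 2 (adjusted p = 0.000656). Ube2c, the conjugating enzyme of that complex, read 8.03, 7.92 and 8.0 against 6.11, 7.86 and 6.88, with differences of 1.03 and 1.49. Espl1, separase, which cuts cohesin, read 5.80, 5.69 and 5.59 against 5.19, 5.89 and 5.33. These values lay near the background gauge, and Espl1 differed by 0.23 over all arrays (95% interval -0.18 to 0.64, limma adjusted p = 0.646) and 0.44 without lateral ventricle array 2 (adjusted p = 0.0474). Its margin to the gauge in lateral array 1 was small (5.19 against 5.04).

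Condensin shapes mitotic chromosomes. Its subunit Ncaph read 8.48, 8.46 and 8.47 in the third ventricle arrays, against 6.09, 8.41 and 6.60 in lateral ventricle arrays 1, 2 and 3, with an SD over the third ventricle arrays of 0.0070, the lowest of the list, and a difference of 1.44 over all arrays (95% interval 0.28 to 2.59, limma adjusted p = 0.338) and 2.12 without lateral ventricle array 2 (adjusted p = 0.000295). Ncapg differed by 1.17 and 1.72 and Smc2 by 1.08 and 1.58. Smc4 read 11.05, 11.07 and 11.01 against 10.02, 10.94 and 10.29 and differed by 0.63 over all arrays (95% interval 0.14 to 1.11, limma adjusted p = 0.327) and 0.89 without lateral ventricle array 2 (adjusted p = 0.00247). Smc4 and Smc2 are partners in one ring, and against the third ventricle mean Smc4 lay at -1.03 and -0.75 in lateral arrays 1 and 3, where Smc2 lay at -1.81 and -1.35.

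Other genes of mitosis were read from a list of 69, of which 66 were measured. All 66 had a positive difference, with a median of 0.95, and 0 passed over all arrays (limma, adjusted p), as for the 47. Without lateral array 2, 59 passed as higher and 0 as lower, with a median of 1.41. Depdc1a (1.47), Hmmr, a spindle-binding hyaluronan receptor (1.44), and the kinesins Kif20b (1.39) and Kif15 (1.39) had the largest differences over all arrays. Their differences without lateral array 2 were 2.06, 2.13, 1.92 and 2.12. Cks1b and Cks2, small partners of cyclin-dependent kinases, differed by 0.91 and 1.31, Ska2, of a kinetochore complex, by 0.62 and Ckap5, a microtubule polymerase, by 0.26. At the low end were Cenpo (0.01), Zwint (0.10), Cenpt (0.16) and Troap (0.18), which did not pass without lateral array 2 either.

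Subunits and regulators of the anaphase-promoting complex and of cohesin that are present through the whole cycle were read as well. Of these 22 genes, 13 had a positive difference, with a median of 0.07, and 0 passed over all arrays. Without lateral array 2 the cohesin subunit Rad21 passed as higher (0.43, limma adjusted p = 0.0281) and 21 did not, Smc1a (0.37), Pds5b (0.32) and Anapc13 (0.10) among them. Of the genes of S phase, all 37 measured had a positive difference, where 45.4% of all genes did, with a median of 0.78, and 0 passed over all arrays. Without lateral array 2, 34 passed as higher, where 4.37% of all genes did, and the median was 1.21. Pcna, the sliding clamp, differed by 0.56 and 0.84, Rrm1 and Rrm2, the subunits of ribonucleotide reductase, by 1.29 and 1.32 over all arrays and by 1.91 and 2.06 without lateral array 2, and the histone chaperone subunit Chaf1b by 1.33 and 2.02.

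Among 19 genes of cell cycle exit and of the RB and DREAM repressors, the median difference was 0.08 and 0 passed over all arrays. Without lateral array 2, 5 passed, all as higher: the CDK inhibitors Cdkn2c (1.21) and Cdkn2d (0.76), the RB relative Rbl1 (1.498) and the MuvB subunits Lin9 (1.28) and Lin54 (0.57). The CDK inhibitor Cdkn1b, p27, differed by -0.10 over all arrays and -0.11 without lateral array 2, and Ccng1 by 0.26 and 0.23, and neither passed.

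Genes of the ATF4 response to amino acid and folding stress ran opposite to the mitosis genes in the same arrays. Against the third ventricle mean, the median of 17 genes was 0.84 in lateral array 1, -0.15 in lateral array 2 and 1.30 in lateral array 3. The list median level was 6.39 to 6.82 in the third ventricle arrays and 6.57 to 9.40 in the lateral arrays. All 17 had a negative difference, 0 passed over all arrays, and 14 passed as lower without lateral array 2. Slc7a3, a transporter of basic amino acids, differed by -3.47 in that fit and Nupr1, a stress-induced chromatin protein, by -3.42, both passing as lower, while asparagine synthetase, Asns, passed at -1.37. Psat1, of serine synthesis, differed by -0.18 and did not pass. Over all arrays these 4 differed by -2.33, -2.19, -0.81 and -0.08. By the list medians, lateral array 3 was further from the third ventricle for the ATF4 response genes and lateral array 1 for the mitosis genes. Phgdh of the first list and Cdc20 of the second had the other order. The part of this response in the mitosis difference was not tested.

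**Figure D4:**
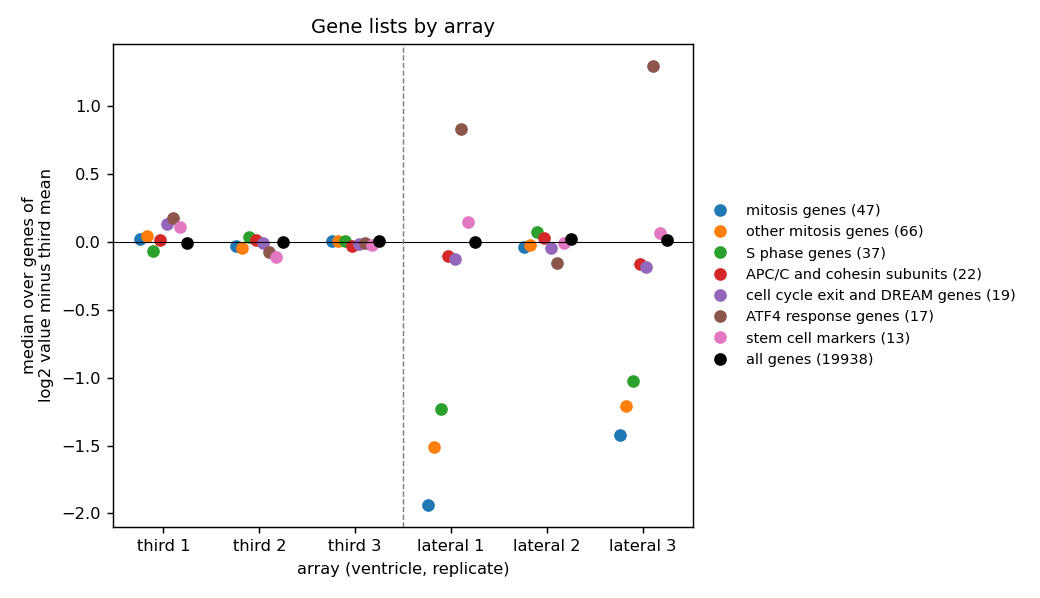
Median over the genes of each list of the log2 value minus the third ventricle mean, by array (the third ventricle left, the lateral ventricle right), with the number of measured genes in the legend. In lateral arrays 1 and 3 the mitosis genes lie at -1.94 and -1.42 and the ATF4 response genes at 0.84 and 1.30, while in lateral array 2 they lie at -0.03 and -0.15.

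Markers of cell types were read in the same way. The 13 stem and progenitor markers had a median difference of -0.04 and 0 passed over all arrays, and Nes (0.86) and Egfr (0.50) passed as higher without lateral array 2. Vim, Fabp7 and Hes1 differed by 0.19, 0.05 and 0.50 over all arrays and did not pass. Of 15 neuronal markers, with list medians of 5.56 to 5.78 in the third and 5.63 to 6.00 in the lateral ventricle arrays, Dcx (-1.92) and Tubb3 (-0.78) passed as lower without lateral array 2. The list as a whole went both ways in that fit, with 8 of the 15 positive and a median of 0.11, and Gap43 (0.78) and Elavl4 (0.52) did not pass. Of 11 astrocyte markers, with list medians of 6.25 to 6.42 and 6.19 to 7.06, Sparcl1 (0.68) passed as higher and Apoe (-2.04) as lower in that fit, where 4 of the 11 were positive with a median of -0.09. Of 11 oligodendrocyte markers, with list medians of 6.05 to 6.45 and 6.91 to 7.35, Pdgfra and Lhfpl3 passed as lower over all arrays, and Sox10 and Gpr17 as well without lateral array 2. In that fit 2 of the 11 had a positive difference, with a median of -0.27. For Pdgfra, Lhfpl3, Sox10 and Gpr17, chosen here after their values were seen, all lateral arrays lay above the third ventricle arrays, array 2 included. In no other gene of the 11 were the groups without overlap. Over all 19938 genes, the groups did not overlap in 3391, counting both directions. Olig1 and Olig2 had another order, with array 2 at 9.23 and 7.76, and arrays 1 and 3 at 8.46 and 8.69 for Olig1 and at 7.53 and 7.58 for Olig2. Of 10 ependymal markers, 4 of which were above the background gauge in 0 arrays, Dynlrb2 (0.95) passed as higher without lateral array 2. In that fit 6 of the 10 were positive, with a median of 0.05. Of the neuronal, astrocyte and ependymal markers 0 passed over all arrays. Of the microglial, endothelial and erythroid markers 0 passed in either fit. The part of these cell types in the mitosis difference was not tested.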

How the data were processed

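RNA of 6 cultures was amplified with the NuGEN WT-Ovation Pico system and hybridised to Affymetrix arrays, per the labels' protocols. The authors deposited log2 values, which the submitters' processing notes credit to RMA and Affymetrix Expression Console 1.1, and their medians over probe sets (5.432 to 5.471) were alike, so no further scaling was applied. The genome build used for the array is not given in the sources used here. Of 35556 probe sets, 21789 carried 1 gene symbol, 1621 several and 12146 none. For each of 19938 genes the brightest single-symbol probe set was taken (999 had more than 1). Differences (the third minus the lateral ventricle) were fitted with limma 3.58.1 in R 4.3.3 (lmFit and eBayes), and p-values were adjusted by Benjamini and Hochberg's method across the 19938 genes (threshold 0.05). The fit was tested on simulated data in which a gene had the same SD in both groups and no array stood apart. That test therefore does not cover the unequal spread seen here. The number of arrays limits the precision.

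Full values were given for Mki67, Top2a and Cdk1, for the brightest gene and the gene with the largest difference of each role, and for the 3 genes with the smallest difference. Of other lists the brightest and the most changed genes were named, and for other mitosis genes also the 4 with the smallest difference. Marker genes, Cdkn2c, Cdkn2d and Lin54 were named after their values were seen. The genes and lists were chosen with earlier results of these data known. Promoter windows and their coordinates are RefSeq's, on GRCm38.p6. Ccna2, also meant to be shown, had no window and is only named. Alternatives were other normalizations, probe set means, a filter on dim genes, a minimum fold, another variance prior, array weights, a replicate block and leaving out arrays.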

Additional observations from a re-analysis of the deposited data

How the results depend on the processing

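Over all 6 arrays 46 genes passed. That count was 158 with array weights and 17 with a minimum fold of 1.2, and 4 to 1644 when 1 array was left out, the highest without lateral ventricle array 2. The number of mitosis genes that passed ran from 0 to 47 when 1 array was left out, and only the fit without lateral ventricle array 2 gave any. It was 0 in all other settings run, including array weights, which gave that array a weight of 0.426 (lowest adjusted p among these genes 0.0549, limma). Their median difference was 0.724 to 1.675 when 1 array was left out, 1.348 with array weights and 0.034 with lateral ventricle array 2 as the only lateral array. In that last setting the sign turned for Apoe (0.036), Asns (0.309), Birc5 (-0.041), Bub3 (-0.018), Ccna2 (-0.143), Cdca8 (-0.035), Cenpe (-0.069), Cenpf (-0.112), Chaf1b (-0.048), Ckap5 (-0.06), Espl1 (-0.193), Incenp (-0.115), Kif11 (-0.111), Kif15 (-0.073), Kif2c (-0.08), Kif4 (-0.17), Lin54 (-0.019), Mad2l1 (-0.06), Ndc80 (-0.012), Nes (-0.122), Nupr1 (0.258), Nusap1 (-0.027), Pbk (-0.306), Pcna (-0.005), Plk4 (-0.129), Psat1 (0.123), Racgap1 (-0.104), Rad21 (-0.016), Rbl1 (-0.176), Rrm2 (-0.154), Ska2 (-0.034), Smc1a (-0.101), Top2a (-0.053), Troap (-0.255), Ttk (-0.089), Zwint (-0.051). The sign also turned for Anapc13 when quantile normalization was repeated (-0.015) and with cyclic loess (-0.007), and for Fabp7 with cyclic loess (-0.037) and without the third ventricle array 1 (-0.015). It turned for Cenpo without array 1 (-0.058) or 3 (-0.014) of the third ventricle or lateral ventricle array 2 (-0.008), and for Psat1 without lateral ventricle array 3 (0.036). With 1 array left out, Fabp7 ran from -0.015 to 0.108, Cenpo from -0.058 to 0.107 and Psat1 from -0.18 to 0.036. The cause was not tested. With the replicate number as a block, 57 genes and 0 of the mitosis genes passed, with a median difference of 1.154. Same-numbered arrays deviated together at correlations of 0.24, 0.111 and 0.068, so the numbers were not taken to pair the samples. Each array correlated best with its own number, a hint from the data only.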
